A study of Mus musculus with 17 samples.

Results

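The let-7 family on the array consisted of 9 mature miRs, let-7a, let-7b, let-7c, let-7d, let-7e, let-7f, let-7g, let-7i and miR-98, chosen by name from the 569 mouse miRs with spots. Only guide strands were taken. All 9 were above background in each of the 17 samples and were among the 162 miRs detected at a normalised intensity of 200 or more in at least 1 sample.

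MiR expression was measured in mouse kidney to follow the response to ischemia reperfusion injury (IRI) over 30 days. The mice were C57/BL6, 10 to 12 weeks old, and are labelled female, whereas the methods give male mice. IRI kidneys had 30 minutes of warm ischemia, sham kidneys came from sham-operated mice, and naive kidneys came from untreated mice. Each sample was 1 pool of 3 mice, with 1 naive pool and, on 8 days from day 1 to day 30, 1 pool of each operated arm. Both pools of a day shared an array, IRI always in Cy3 and sham always in Cy5, so that a dye effect at a probe and an effect of IRI cannot be told apart in the mean IRI/sham ratio. On the day 5 array the file does not say which channel holds which arm, and the arms were taken from the dye in the labels. Without day 5, 7 members passed the test of the mean ratio, as with it. With 1 pool for each arm and day the days served as replicates, and the p-values measure the spread between days.

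The let-7 miRs pair through their seed, the stretch near the 5′ end that binds target mRNAs, and repress those mRNAs. They are abundant in differentiated tissues and are known for restraining proliferation and for holding down targets such as Lin28, Hmga2 and Ras genes, while Lin28 proteins in turn block the maturation of let-7 precursors. MiR-98 is a family member under another name.

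The mature sequences are shown because the members differ at few bases and their probes can therefore share signal. Capitals mark the seed, bases 2 to 8, which was GAGGUAG in all 9. No other of the 569 array sequences carried it at these positions.
mmu-let-7a: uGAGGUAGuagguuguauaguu
mmu-let-7b: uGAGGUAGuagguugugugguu
mmu-let-7c: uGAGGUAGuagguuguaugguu
mmu-let-7d: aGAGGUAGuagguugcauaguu
mmu-let-7e: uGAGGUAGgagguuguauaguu
mmu-let-7f: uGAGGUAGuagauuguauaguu
mmu-let-7g: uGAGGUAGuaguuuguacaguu
mmu-let-7i: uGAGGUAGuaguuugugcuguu
mmu-miR-98: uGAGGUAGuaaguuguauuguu

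The sequences were read from the array files and were identical to the mature entries of RefSeq (GRCm38.p6) for 9 of 9. Counted from the 5′ end of let-7a, let-7c differed by A19G, let-7e by U9G and let-7f by G12A. Differences at 2 positions were found in let-7b (A17G and A19G), let-7d (U1A and U16C), let-7g (G12U and U18C) and miR-98 (G11A and A19U). Let-7i was the farthest from let-7a, with 4 differences (G12U, A17G, U18C and A19U), and was 2 bases from let-7g.

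In GRCm38.p6 the 9 mature miRs came from 12 hairpin genes on 7 chromosomes. Let-7d (chr13:48536012-48536114, minus strand), let-7f-1 (chr13:48537829-48537917) and let-7a-1 (chr13:48538179-48538272) lay together, with 1714 and 261 bases between neighbours. Let-7c-2 (chr15:85706603-85706697, plus strand) and let-7b (chr15:85707319-85707403) were 621 bases apart, and let-7f-2 (chrX:151912346-151912428, plus strand) and miR-98 (chrX:151913214-151913321) 785 bases apart. Let-7e (chr17:17830352-17830444, plus strand) lay between miR-99b and miR-125a, let-7c-1 (chr16:77599657-77599750, plus strand) 656 bases from miR-99a, and let-7a-2 (chr9:41536716-41536811, plus strand) 5211 bases from miR-100. Let-7g (chr9:106178840-106178927, plus strand) and let-7i (chr10:122985640-122985724, minus strand) had none of these hairpins near them.

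The probes of let-7a, let-7b, let-7c, let-7d and let-7f were at the bright end of the arrays in the mean of both channels. In single channels the order varied, with let-7b between rank 5 and 8 of the miRs in IRI, let-7c between 3 and 6, and let-7f at rank 6 in naive. Taken over the intensity of empty spots, the 9 members gave 30.5% to 46.8% of the summed miR signal in IRI (median 37.4%), 46.3% to 62.4% in sham (median 51.5%) and 54.2% in naive. The share was lower in IRI than in sham on 8 of 8 days, although the ranges of the arms overlapped, and each arm had its own dye. Probe intensities are not molecule numbers, and their order does not give that of the miRs. Of all member spots, 1 lay at 90% or more of the scanner's upper limit, in IRI on day 10.

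In the comparison of IRI with sham, let-7a, let-7b, let-7c, let-7d, let-7f and let-7g were lower and let-7i was higher, whereas let-7e and miR-98 did not pass the test. Thus 6 members fell and 1 rose of 9, against 17.9% of the 162 detected miRs that fell and 18.5% that rose (limma over 8 arrays, with each array's log2 IRI/sham ratio as the value, Benjamini-Hochberg adjusted p under 0.05). The median of the mean log2 ratios was −0.57 over the members and −0.04 over all detected miRs. Without day 7, or without day 21, let-7i alone passed, and the count was 3 without day 1, 3 without day 10, 2 without day 14 and 4 without day 30. With the processed values that the authors deposited, 3 passed, of which 2 were lower.

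**Figure D1:**
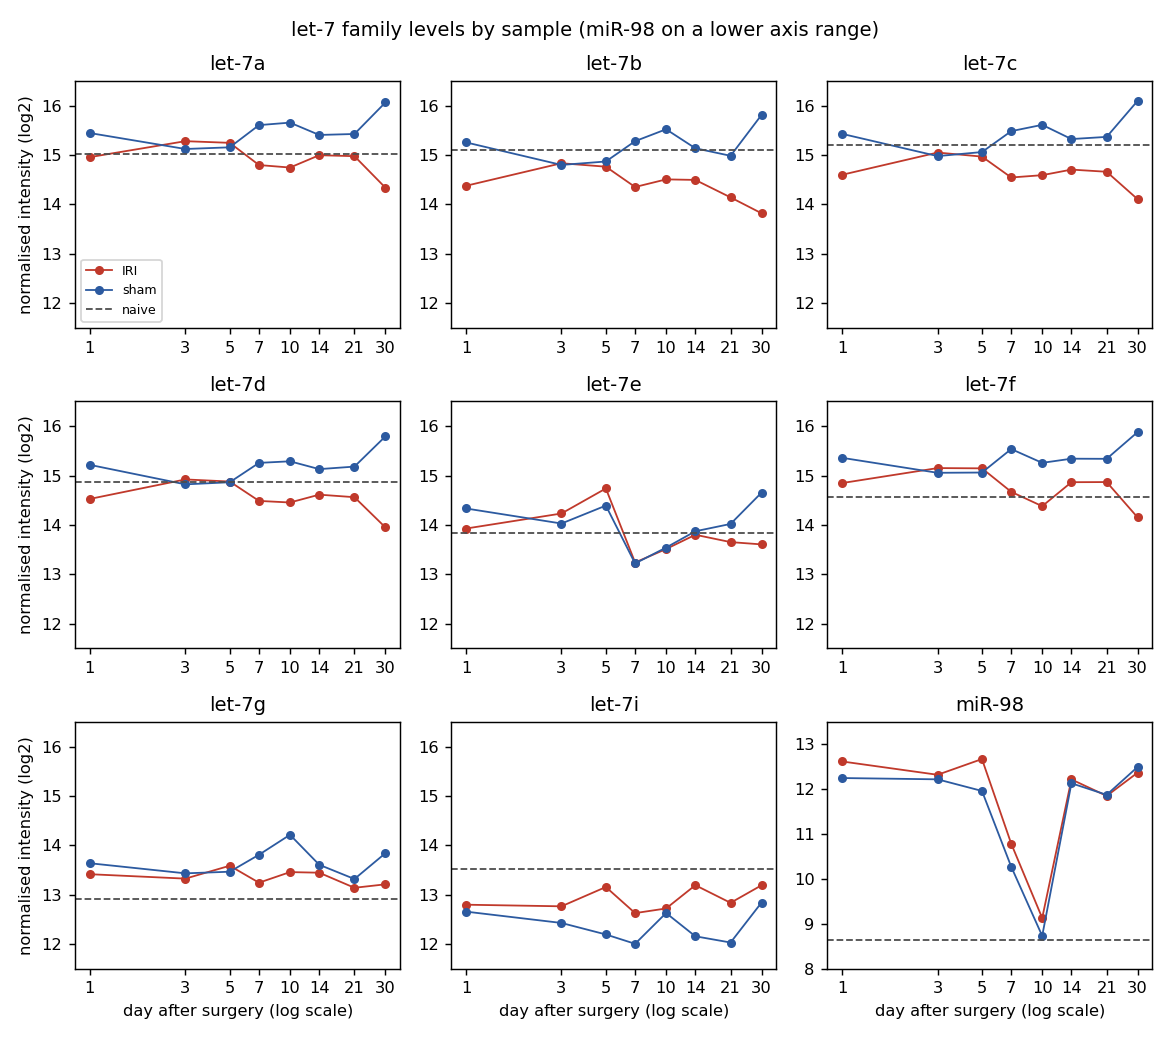
Normalised intensity (log2) of each member by day after surgery (log scale), with IRI pools in red, sham pools in blue and the naive pool as a dashed line; each point is 1 pool of 3 mice, and miR-98 has its own axis range. Let-7a, let-7b, let-7c, let-7d and let-7f lay lower in IRI than in sham from day 7 on, let-7i lay higher in IRI on all 8 days, and miR-98 had its lowest values on days 7 and 10 in both arms.

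Let-7b was the member with the lowest mean ratio. Its log2 normalised intensity was 13.82 to 14.84 in the 8 IRI samples (median 14.44) and 14.80 to 15.81 in the 8 sham samples (median 15.20). The arms overlapped only between the highest IRI sample, day 3, and the lowest sham sample, also day 3. The mean log2 IRI/sham ratio was −0.80 (SE 0.20, limma adjusted p = 0.0198), that is 1.74-fold higher in sham, and was negative on 7 of 8 days.

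Let-7c, which differs from let-7b at 1 base, ranged from 14.11 to 15.05 in IRI (median 14.63) and from 14.98 to 16.10 in sham (median 15.40). Here too the arms met at day 3, the highest of IRI and the lowest of sham. The mean log2 ratio was −0.77 (SE 0.20, limma adjusted p = 0.0231), lower in IRI on 7 of 8 days. With the processed values the means of let-7b and let-7c were −0.43 and −0.39 (limma adjusted p = 0.0286 and 0.0362), and with plain background subtraction let-7c was −0.38 and did not pass (0.0572).

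Let-7d, let-7f and let-7a had a similar pattern, each lower in IRI on 6 of 8 days and slightly higher on days 3 and 5. Let-7d was 13.95 to 14.92 in IRI (median 14.54) and 14.82 to 15.79 in sham (median 15.20), with a mean log2 ratio of −0.65 (SE 0.19, limma adjusted p = 0.0330). Let-7f was 14.15 to 15.15 in IRI (median 14.86) and 15.06 to 15.88 in sham (median 15.34), with a mean log2 ratio of −0.59 (SE 0.19, limma adjusted p = 0.0391). Let-7a was 14.34 to 15.28 in IRI (median 14.97) and 15.12 to 16.07 in sham (median 15.44), with a mean log2 ratio of −0.57 (SE 0.20, limma adjusted p = 0.0489). With the processed values the means were nearer to 0 and none of the 3 passed, at −0.28 for let-7d (limma adjusted p = 0.105), −0.22 for let-7f (0.185) and −0.17 for let-7a (0.296). In all 3 the arms overlapped through days 3 and 5, and the lowest IRI sample and the highest sham sample were those of day 30. On day 10, 1 of the 6 let-7f spots read 992 in IRI and 425 in sham, where the next lowest spots read 50349 and 29460. The let-7f ratio of that day was −0.88 from the mean and −0.84 from the median of its spots.

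The day pattern of these 5 miRs was common to them. Their log2 ratios lay between 0.03 and 0.16 on day 3, between −0.77 and −0.94 on day 7, and between −1.73 and −1.99 on day 30. Pearson's r of the log2 ratios over the 8 arrays was 0.98 or more in each of the 10 pairs of these 5 members, which share the arrays and the bright end of the same loess curve. At that end the curve had few other points: no non-member was brighter than the dimmest of the 5 on 7 arrays, and 1 was on day 21. The shift that the curve took off the log2 ratio of let-7a ran from −0.27 on day 3 to 1.97 on day 30. Before this step the ratio of let-7a was 0.24 on day 30, and with the processed values it was −0.41. With the members at weight 0 in the loess fit, 6 members passed the test in place of 7, 5 of them lower.

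Let-7g had a mean ratio nearer to 0. Its level was 13.14 to 13.59 in IRI (median 13.37) and 13.32 to 14.21 in sham (median 13.62), and the arms overlapped over most of the IRI range. The mean log2 ratio was −0.31 (SE 0.11, limma adjusted p = 0.0489), lower in IRI on 7 of 8 days, with the lowest ratio, −0.76, on day 10. With the processed values the mean was −0.08 (limma adjusted p = 0.581) and did not pass. Let-7e was 13.24 to 14.74 in IRI (median 13.73) and 13.22 to 14.65 in sham (median 14.02), so that the arms covered nearly the same range. Its mean log2 ratio was −0.17 (95% interval −0.50 to 0.16, limma adjusted p = 0.388) with 5 of 8 days lower in IRI, and it changed sign with the background correction.

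Let-7i was the member that rose in IRI. Its log2 normalised intensity was 12.63 to 13.19 in IRI (median 12.82) and 12.01 to 12.84 in sham (median 12.31). The sham samples of days 1, 10 and 30 reached into the IRI range, yet on each day IRI was above the sham pool of the same array. The mean log2 ratio was 0.54 (SE 0.13, 95% interval 0.26 to 0.83, limma adjusted p = 0.0135), a 1.46-fold higher level, with an exact two-sided sign-flip permutation p of 0.00781, the smallest that 8 arrays allow. The log2 ratio was 0.14 a day after surgery, 0.34 at day 3 and 0.96 at day 5, then 0.62 at day 7 and 0.09 at day 10. It reached 1.03 at day 14, followed by 0.80 at day 21 and 0.35 at day 30. With the processed values the same ratio was lowest on days 1 and 3 (0.27 and 0.33), and was 0.37 at day 10 and 0.75 at day 30. The shift that the loess curve took off the let-7i ratio ran from 0.09 on day 3 to 1.95 on day 30. Before this step the ratio was 1.89 on day 10 and 2.30 on day 30. With 1 pool for each arm and day, differences between days have no replicate check. When the channels were scaled by their medians the mean was 0.41 and did not pass (limma adjusted p = 0.243), and this scaling set the median of all miRs at 0.19.

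MiR-98 was 9.13 to 12.67 in IRI (median 12.27) and 8.73 to 12.50 in sham (median 12.05), with both arms lowest on day 10. Its mean log2 ratio was 0.25 (95% interval 0.02 to 0.49, limma adjusted p = 0.0854), with 6 of 8 days higher in IRI. The highest ratio was 0.71 on day 5 and the lowest −0.13 on day 30.

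**Figure D2:**
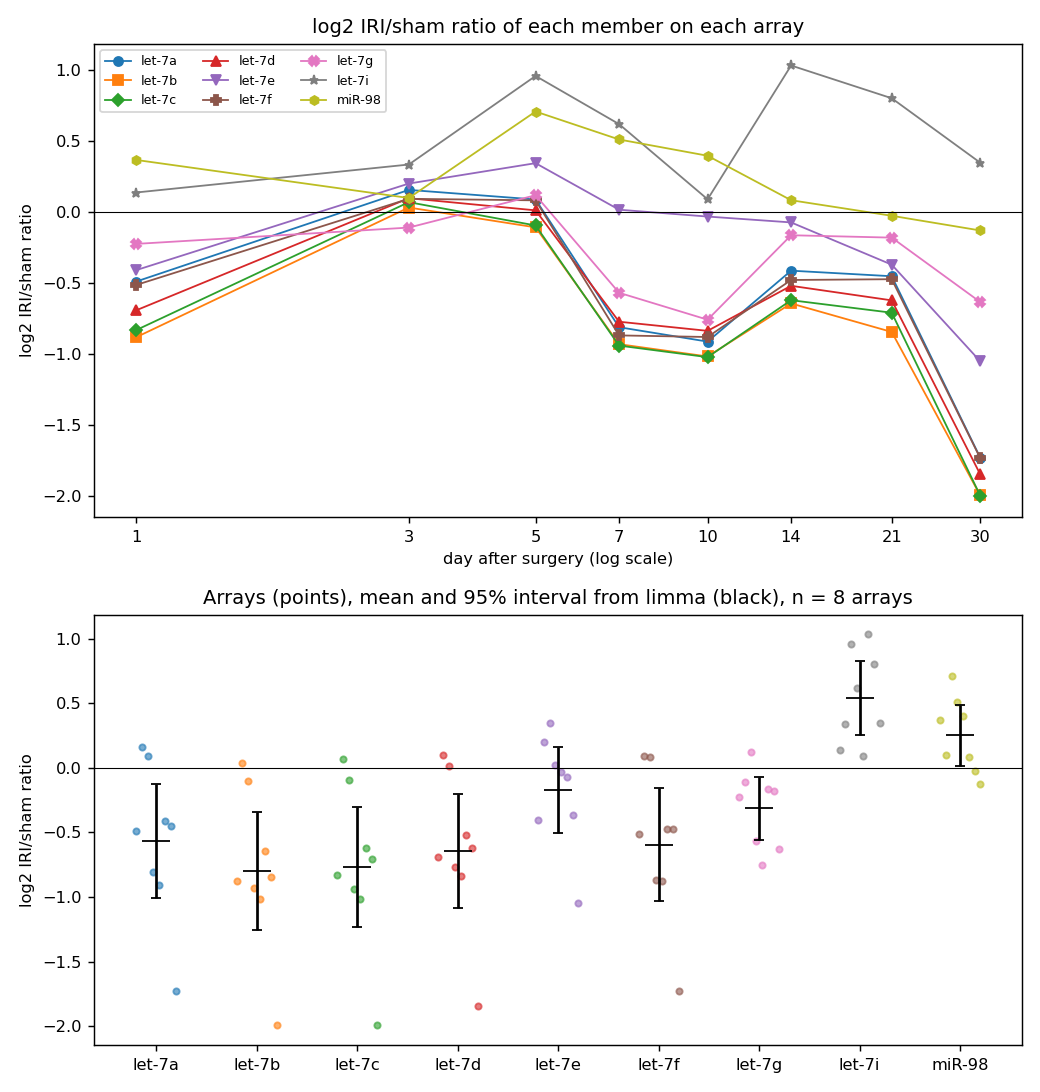
Upper panel, log2 IRI/sham ratio of each member on each array against day after surgery (log scale); lower panel, the same values as points with the mean and the 95% interval from limma in black (n = 8 arrays). Let-7a, let-7b, let-7c, let-7d and let-7f run together down to between −1.73 and −1.99 on day 30, and let-7i is above 0 on all 8 arrays.

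None of the 9 members had IRI and sham samples that did not overlap, as against 3.09% of the 162 detected miRs.

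Whether the members moved apart was tested on the difference of their log2 ratios within each array. Of 36 pairs, 27 differed (exact two-sided sign-flip permutation test over 8 arrays, Benjamini-Hochberg over the 36 pairs, adjusted p under 0.05), by 0.12 to 1.34 on the log2 scale. Let-7i accounted for 7 of these, being above let-7a, let-7b, let-7c, let-7d, let-7e, let-7f and let-7g on 8 of 8 days (adjusted exact permutation p = 0.0122 for each). The mean difference was 0.71 (SE 0.17) from let-7e and 1.34 (SE 0.21) from let-7b. A dye effect that differs between probes is part of these differences and cannot be told apart from them.

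Let-7g is the member nearest to let-7i in sequence, with 2 bases different, and was 0.85 lower in mean log2 ratio (SE 0.11). Let-7i and miR-98, which differ at 4 bases, were not told apart by the test (difference 0.29, SE 0.16, adjusted exact permutation p = 0.124). MiR-98 was above let-7a, let-7b, let-7c, let-7d, let-7e, let-7f and let-7g in mean ratio, and these 7 differences passed.

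Among let-7a, let-7b, let-7c, let-7d and let-7f, 6 of 10 pairs differed, by at most 0.23. The pairs a and d, a and f, b and c, and d and f did not pass, nor did let-7g with let-7a, let-7d, let-7e or let-7f. Of the 4 pairs with 1 different base, 2 differed, and the mean differences ran from 0.03 to 0.40. At 2 different bases 7 of 10 pairs differed, at 3 bases 9 of 11, and at 4 bases 7 of 9. Pearson's r of the log2 ratios over the 8 arrays had a median of 0.99 in the pairs with 1 different base, 0.83 with 2, 0.77 with 3 and 0.36 with 4. The ranges were wide and overlapped, at 0.821 to 0.999 with 1, 0.387 to 0.990 with 2, 0.336 to 0.998 with 3 and 0.067 to 0.998 with 4. Let-7b and let-7d, with 4 different bases, had an r of 0.998, and let-7a and miR-98, with 2, had 0.387. These are descriptions over pairs that share members and arrays, and how much signal crossed between probes was not tested.

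**Figure D3:**
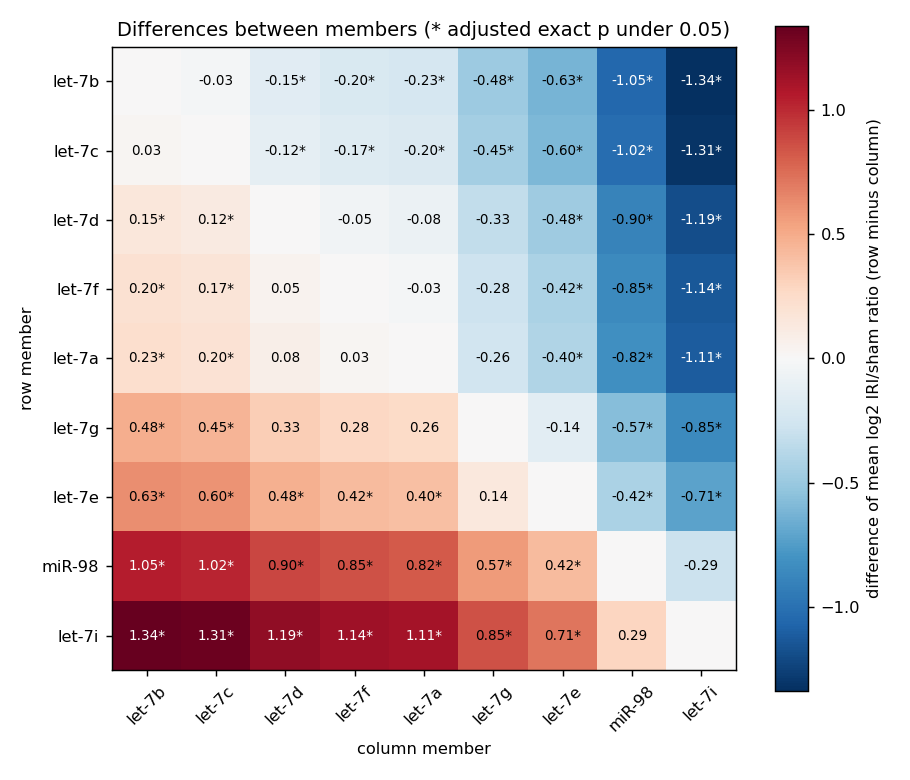
Difference of the mean log2 IRI/sham ratio between members (row minus column), ordered from the lowest to the highest mean ratio; an asterisk marks an adjusted exact permutation p under 0.05 over 36 pairs. The let-7i row differs from every other member but miR-98, by 0.71 to 1.34 where it passed.

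A change over time was tested as a slope over log2(day), per doubling of the day. No member passed for the log2 IRI/sham ratio, where 2.47% of detected miRs did, for the IRI level (8.64%) or for the sham level (1.23%). At an unadjusted limma p under 0.05 there were 0 members in each of the 3 tests, and 34, 39 and 17 of the 162 detected miRs. Ratio slopes lay between −0.21 for let-7a (95% interval −0.48 to 0.06, limma adjusted p = 0.330) and 0.08 for let-7i (−0.11 to 0.27, adjusted p = 0.617). Without day 1 the slopes were steeper, at −0.42 for let-7a, −0.48 for let-7b (limma adjusted p = 0.0533), −0.47 for let-7c, −0.45 for let-7d, −0.41 for let-7f and −0.34 for let-7e (adjusted p = 0.0501). Under median scaling that of let-7a was −0.03. Over both channels the let-7a probe was the brightest on the 8 arrays, and quantile normalization gave it the same array mean on each of them, so its IRI and sham levels mirrored each other and held no more than the ratio. Let-7d was not the brightest, but it too had the same array mean on each array, and its levels mirrored each other.

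MiR-98 and let-7e had low levels on days 7 and 10 in both arms. The log2 normalised intensity of miR-98 in IRI was 10.79 on day 7 and 9.13 on day 10, with the next lowest at 11.85, and in sham it was 10.27 and 8.73, with the next lowest at 11.87. On the scale of the processed values it was 1616 and 609 in IRI and 1168 and 328 in sham on these days, and 3930 to 8064 in the other 12 samples of both arms. The mean of days 7 and 10 minus that of the other days was −2.38 in IRI and −2.65 in sham for miR-98, and −0.62 and −0.84 for let-7e, on the log2 scale. In 6 of the 162 detected miRs these were the lowest days of both arms, and miR-98 and let-7e were 2 of the 6. MiR-98 had the largest drop of the 162. The days were singled out after the values were seen, so no test is given.

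A pair of calibration control probes named PUC2PM and PUC2MM was read on the same arrays. The signal of PUC2MM over empty spots, as a percentage of PUC2PM, was 87.4% to 88.3% in sham up to day 5, 72.8% on day 7, 71.7% on day 10, and 84.0%, 79.6% and 75.1% at the 3 later times. In IRI it was 89.1% to 91.4% up to day 5, 81.0% and 82.7% on days 7 and 10, and 84.1%, 79.2% and 75.4% later. Days 7 and 10 were thus the lowest in sham, but not in IRI. In naive the percentage was 54.9%. A second pair, a-PUC2PM and a-PUC2MM2d, varied more. In sham its percentage was 5.53%, 4.64% and 1.96% up to day 5, 0.0788% and 0.0770% on days 7 and 10, and 0.130% to 0.569% later. In IRI it was 9.44%, 6.71% and 1.09% up to day 5, 0.271% and 0.652% on days 7 and 10, and 0.210% to 0.695% later. Here too days 7 and 10 were the lowest in sham but not in IRI, and the part of these array differences in the levels of miR-98 and let-7e was not tested.

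**Figure D4:**
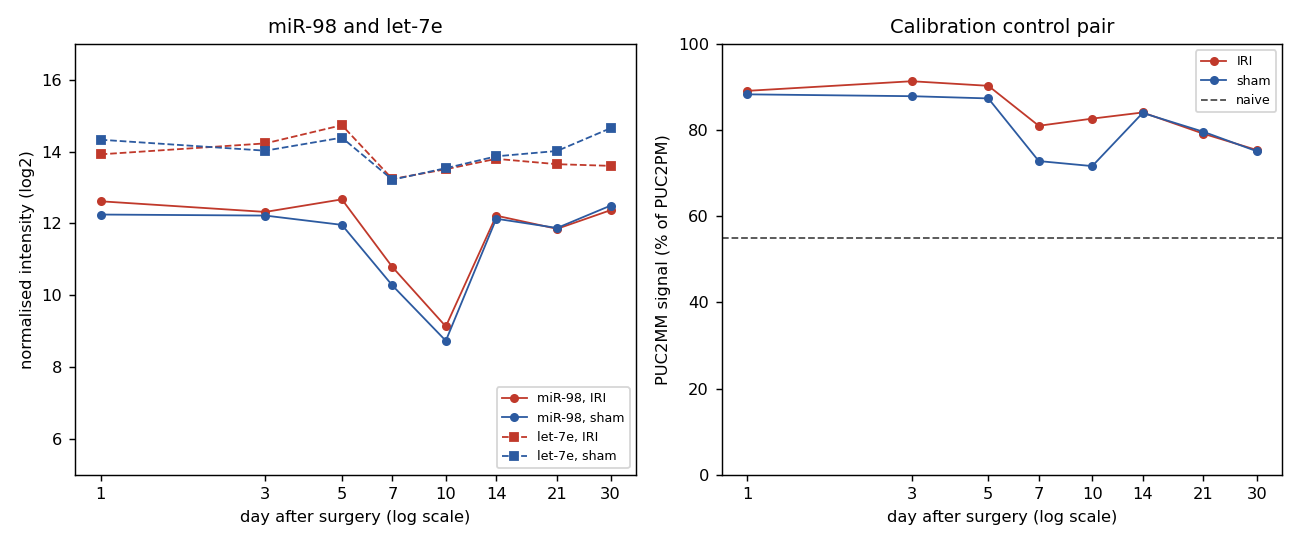
Left, normalised intensity (log2) of miR-98 and let-7e by day after surgery (log scale) in IRI (red) and sham (blue), 1 pool for each point; right, signal of the control probe PUC2MM as a percentage of PUC2PM on the same arrays, with naive as a dashed line. MiR-98 dropped to 9.13 in IRI and 8.73 in sham on day 10, and the control percentage in sham was lowest on days 7 and 10 (72.8% and 71.7%).

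Naive was 1 pool hybridised alone in Cy3, the dye of IRI and not of sham, so levels against it are given with no test. Log2 normalised intensity in naive was 15.02 for let-7a, 15.10 for let-7b, 15.20 for let-7c, 14.87 for let-7d, 13.84 for let-7e, 14.56 for let-7f, 12.92 for let-7g, 13.53 for let-7i and 8.65 for miR-98. The place of naive depended on the scale for several members. Let-7i was below naive in 8 of 8 IRI samples as normalised here, with log2 differences of −0.90 to −0.33, but above it in 7 of 8 with the processed values (8223 in naive, 8069 to 11846 in IRI). In sham let-7i was below naive in 8 of 8 samples on both scales. Let-7b and let-7c were below naive in 8 of 8 IRI samples on both scales, whereas in sham they were above it in 5 and 6 of 8 samples as normalised here and in 0 with the processed values. Let-7g was above naive in all 16 other samples on both scales. MiR-98 was above it in all 16 as normalised here, and with the processed values (1302 in naive) it was below it in IRI on day 10 and in sham on days 7 and 10. The naive array was dim, with miR-98 at 1.20, let-7g at 2.29, let-7i at 2.69 and let-7e at 3.82 times the empty spots.

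The passenger strands, the opposite arms of the let-7 hairpins, were dim. Of 7 on the array, let-7a*, let-7b*, let-7d* and let-7f* counted as detected. Let-7a*, let-7b* and let-7f* reached the intensity of 200 in naive alone and let-7d* in naive and 1 other sample, so that the IRI/sham ratios of these strands are those of probes near the floor and hold no result. The brightest, let-7d*, reached 2.98 times the empty spots in its highest sample.

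Of 5 miRs with hairpins on the same chromosomal stretch as let-7 hairpins, 1 (miR-100) passed as higher and none as lower, beside 18.5% of all detected miRs that rose. The hairpins of miR-125b lie 45114 and 46522 bases from let-7a-2 and let-7c-1. MiR-100 was higher in IRI on 8 of 8 days (mean log2 ratio 0.45, SE 0.14, limma adjusted p = 0.0389), but it reached the intensity of 200 in 3 IRI samples and in no sham or naive sample. It was counted as detected through IRI alone and so had to differ, and its call supports nothing. The other neighbours, miR-125a-5p (0.48, SE 0.31), miR-125b-5p (0.49, SE 0.24), miR-99a (−0.17, SE 0.11) and miR-99b (0.08, SE 0.13), did not pass. The median log2 ratio of the 5 neighbours, 0.45, was that of miR-100 itself, against −0.04 over all detected miRs.

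Among non-members, the log2 ratios of miR-122 (r = 0.79), miR-744 (0.79), miR-192 (0.69), miR-805 (0.69) and miR-320 (0.67) were the most like the mean of the 9 members over the 8 arrays. MiR-122 was above background in 6 of 17 samples and reached the intensity of 200 in 1, a sham sample. It was at 37.5 times the empty spots in its highest sample, so that its likeness rests mostly on 1 bright sample. MiR-744 was above background in 15 samples and reached 200 in 2, so that its likeness is that of a probe near the floor. Of the members, let-7d was the most like the mean of the other 8 (r = 0.99), and let-7i (r = 0.37) and miR-98 (r = 0.43) the least. These are correlations over 8 arrays that share the normalization, given with no test.

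MiRs that mark cell types of the kidney moved between the arms as well. Of the tubule markers miR-192, miR-194, miR-204, miR-30a and miR-30d, 4 were detected. MiR-192, miR-194 and miR-30d were lower in IRI, and miR-30a did not pass. The summed normalised intensity of all 5, with the undetected miR-204, was 5974 to 10956 in IRI and 9855 to 15401 in sham. Of 5 leukocyte markers, miR-223, miR-150 and miR-155 were detected and higher, while miR-142-3p and miR-142-5p were above background in 2 samples each. The sums of all 5, with the 2 undetected miR-142 probes, were 1447 to 3266 in IRI and 820 to 1177 in sham. MiR-223 was above background in 9 samples and reached 200 in 4 IRI samples and in no sham or naive sample, so it was counted as detected through IRI alone and had to differ. All 3 fibroblast markers, miR-199a-3p, miR-199a-5p and miR-214, were higher, with sums of 2221 to 9835 in IRI and 1442 to 3325 in sham. MiR-199a-5p likewise reached 200 in 3 IRI samples alone, and its call supports nothing, as that of miR-223. Of the markers of red cells (2 of 3 detected), endothelium (1 of 1), smooth muscle (2 of 2) and other organs (2 of 5 on the array), none passed for the mean ratio. The sums of the 5 other organ markers were 434 to 619 in IRI and 480 to 3473 in sham, where miR-122 reached 200 in 1 sample. The ratio of both detected red cell markers fell over time, with slopes of −0.79 for miR-451 (limma adjusted p = 0.0124) and −0.59 for miR-486 (0.0252) per doubling of the day. Of the other markers, the fibroblast marker miR-199a-3p alone passed for the slope, and its ratio rose (0.39, limma adjusted p = 0.0257). The part of all these markers in the let-7 ratios was not tested, and in whole kidney fewer cells of a type and less RNA per cell cannot be told apart.

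**Figure D5:**
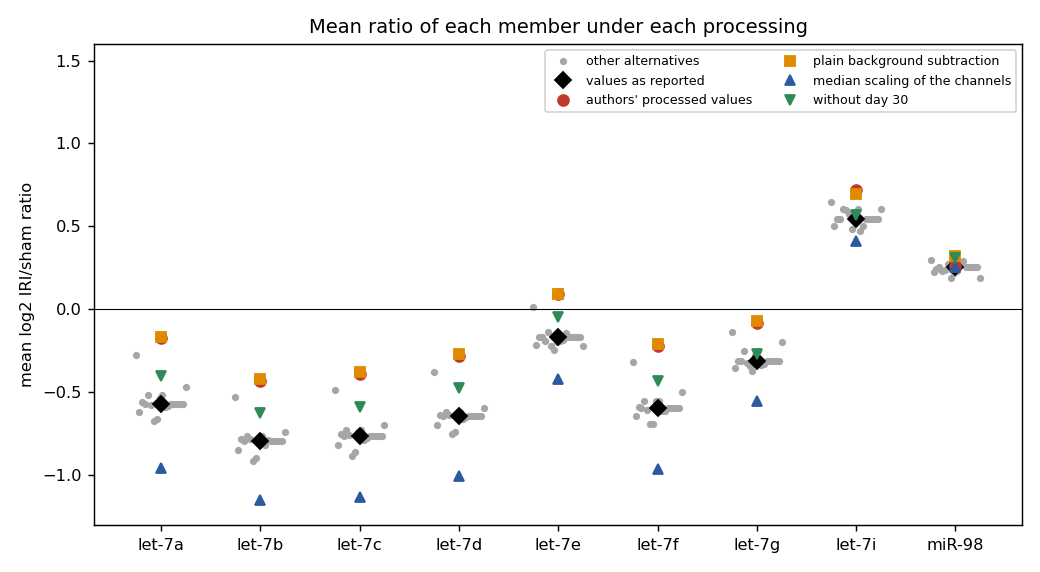
Mean log2 IRI/sham ratio of each member as reported (black diamonds) and under each alternative processing, 4 of them in colour and the others in grey. Let-7i stayed between 0.41 and 0.72, let-7b between −1.15 and −0.42, and let-7e lay on both sides of 0.

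Across 21 alternatives for the mean ratio, let-7i passed in 20, let-7b in 18, let-7c in 15, let-7d in 10, let-7f in 9, let-7a in 7 and let-7g in 5, and let-7e and miR-98 in none. The direction of all but let-7e was kept in each of the 21.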

How the data were processed

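Kidney miRs were hybridised to 9 arrays, 8 of them with IRI and sham in 2 colours and 1 with naive alone. The authors deposited raw scanner intensity per spot, neither background-corrected nor normalized. They also deposited a table of processed linear intensity values, and how these were made is not given in the sources used. Spot intensities were corrected with normexp (offset 50), the 6 spots of a miR were averaged, and the channels of each array were normalized by loess (span 0.3, controls at weight 0). Array means, with naive, were quantile-normalized and both channels rebuilt from the mean and the ratio. A miR was detected at 200 or more in at least 1 sample. Background meant more than 3 median absolute deviations above the median of the 250 empty spots.

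Log2 IRI/sham ratios, 1 per array, were tested with limma 3.58.1 in R 4.3.3 over all 162 detected miRs, against 0 and as a slope over log2(day), with Benjamini-Hochberg adjustment at 0.05. The array paired the IRI and sham samples, which the shared day labels and the shared scanner file give. Pairs of members were tested by exact sign-flip permutation. The limma tests of the mean ratio and of the slope of the ratio were checked on simulated data. In 22 alternatives the data source, background, normalization, spots, samples, filter and model were changed 1 at a time, and leaving out days 7 and 10 was added after the values were seen, as were the alternatives for pairs. The miRs named are the 9 members, the let-7 passenger strands, 5 hairpin neighbours, the 5 non-members most like the members and the listed markers. Members and lists were chosen with earlier results of these data known. The number of arrays limits the precision.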

Additional observations from a re-analysis of the deposited data

How the results depend on the processing

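The number of members past the threshold for the mean ratio was 7 as reported and 1 to 7 under 21 alternatives. It was 3 with the authors' processed values, 2 with plain background subtraction, 2 with a normexp offset of 10, 3 with no filter, 3 with a floor of 200 before the ratio and 1 without days 7 and 10. Leaving out 1 replicate (1 day) at a time gave 1 to 7. It was 3 without day 1, 1 without day 7, 3 without day 10, 2 without day 14, 1 without day 21 and 4 without day 30. Without the replicate block, that is with IRI and sham as unpaired samples, it was 6, and with the block, as reported, 7. For all detected miRs the count was 59 as reported and 20 to 100 under the alternatives. The count of differing pairs, 27 as reported, stayed between 25 and 30 under 17 alternatives, and the count of member slopes was 0 throughout.

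Let-7e reversed sign, without passing the threshold, to 0.0937 with the processed values, 0.0945 with plain subtraction and 0.0111 with offset 10. Under median scaling the ratio slopes reversed to 0.0647 for let-7e, 0.10 for let-7g and 0.10 for miR-98, none past the threshold. The cause was not tested. Median scaling set the median of all miRs at 0.19, from −0.04, and under it 5 members passed, all lower in IRI. Over all detected miRs it gave 34 higher and 9 lower, in place of 30 and 29.

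With 1 pool for each arm and day, no error within a day is known beyond that between spots. Signal over the empty spots was lowest on the naive array, where the miR-98 probe was dim.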
